A study of Mus musculus with 2 samples.

Results

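The genes described here are those of the collagen family, taken as the protein-coding genes of the GENCODE M21 mouse annotation whose symbol is Col, a number, the letter a and a number, such as Col1a1. They numbered 44 of 21938 protein-coding genes, and the rule uses the name alone, with no measured value. Chromatin accessibility was measured by DNase-seq, in which nuclei are treated with DNase I and stretches of DNA that the enzyme cuts more often than the flanking sequence are listed as peaks. The tissue was thymus of female B6CASTF1/J mice, a hybrid strain with 1 set of CAST/EiJ chromosomes, aged 10 days. The 2 libraries formed 1 group, biological replicates 1 and 2, which the labels number as separate females with a shared donor identifier. No treated, mutant or other-tissue group was there to set them against, so values are given per replicate and beside those of all protein-coding genes, with no test between conditions.

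Collagens are triple-helical proteins of the extracellular matrix. Fibrillar collagens form the load-bearing fibres of connective tissue, type 4 collagen forms the network of basement membranes, and the remaining classes bind fibrils, span cell membranes or form other assemblies. The thymus consists mainly of developing T cells, or thymocytes, while its capsule, septa and vessels hold the mesenchymal cells from which most collagen comes.

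Replicate 1 had 132737 peaks and replicate 2 had 69798, with median heights of 0.625 and 0.828, so that heights are given both as deposited and over the median height of their own library. Read numbers are not given in the sources used here, so no counting interval is printed. The tissue label was set against marker genes. All 12 thymocyte markers, led by Cd8b1, Lck, Cd3g and Cd8a, had a promoter peak in both replicates, that is a peak at most 500 bp from an annotated start, with heights that summed to 65.5 and 63.1. Over all protein-coding genes, 63.4% had one in replicate 1, 57.8% in replicate 2 and 57.2% in both. Of 15 markers of fibroblasts and mesenchyme, 8 in replicate 1 and 3 in replicate 2 had one, with sums of 8.77 and 7.69, and Dcn, Lum and Fap had none. The 3 in both were Thy1, which T cells carry as well, at 6.23 and 5.59 times the library median, Pdgfra at 4.45 and 2.75 and Pdgfrb at 1.67 and 0.951. The Pdgfra peak lay at a start other than the 5'-most one of its protein-coding transcripts. At such 5'-most starts, 2 of the 15 had a peak in both replicates, against 52.2% of all genes. Of 7 smooth muscle and pericyte markers, 2 and 1 had one (sums 1.33 and 0.353; none at Tagln, Cnn1 or Des), and of 9 endothelial markers, 5 and 4 (sums 9.07 and 4.89; none at Cdh5, Tek or Tie1). The highest endothelial marker was Pecam1, at 7.09 times the library median in replicate 1 and 2.41 in replicate 2. Of 9 thymic epithelial markers 3 had one in each replicate (sums 13.8 and 12.6; none at Foxn1, Psmb11 or Krt5). These were Ccl25 at 12.5 and 8.64 times the library median, Aire at 8.32 and 5.35, both higher than any collagen promoter peak of the same replicate, and Epcam at 1.19 ± 0.0204 (SD, n = 2). Of 6 cartilage markers 3 and 5 had one (sums 1.17 and 2.09; none at Matn1). The lists hold from 6 to 15 genes and the sums were not scaled to list length. Counts near or under the shares of all genes do not show that a cell type was present.

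The sequences just before the start of 5 fibrillar or transmembrane collagen genes are shown, 3 with a peak there and 2 without, chosen after their values were seen. Col5a1 and Col27a1, which encode minor fibrillar chains, and Col25a1, which encodes a transmembrane collagen of neurons, had their highest promoter peak over these bases in both replicates. Col1a1 and Col3a1, which encode the main chains of type 1 and type 3 collagen, had no peak there. Each run gives the 250 bases before the 5'-most start of the gene's protein-coding transcripts, read 5' to 3' on the gene's strand, here the plus strand in every case, from the GRCm38.p6 (mm10) assembly. Capitals mark matches, on either strand, to 7 motifs: TATAAA of the TATA box, CCAAT of the CCAAT box, GGGCGG of the GC box, TGTGGT of RUNX factors, CCGGAAG of ETS factors, TGANTCA of AP-1 factors and CACGTG of the E-box.
Col5a1, chr2:27886175-27886424: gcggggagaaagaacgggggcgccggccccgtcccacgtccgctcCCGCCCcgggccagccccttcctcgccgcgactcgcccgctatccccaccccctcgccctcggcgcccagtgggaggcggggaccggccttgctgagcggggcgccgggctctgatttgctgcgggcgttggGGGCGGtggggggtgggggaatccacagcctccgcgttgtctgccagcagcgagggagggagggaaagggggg
Col27a1, chr4:63215185-63215434: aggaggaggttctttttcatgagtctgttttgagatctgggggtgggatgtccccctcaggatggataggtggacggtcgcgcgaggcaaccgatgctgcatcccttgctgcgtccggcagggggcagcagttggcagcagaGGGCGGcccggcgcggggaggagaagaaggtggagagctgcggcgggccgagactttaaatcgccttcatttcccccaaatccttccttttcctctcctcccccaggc
Col25a1, chr3:130180641-130180890: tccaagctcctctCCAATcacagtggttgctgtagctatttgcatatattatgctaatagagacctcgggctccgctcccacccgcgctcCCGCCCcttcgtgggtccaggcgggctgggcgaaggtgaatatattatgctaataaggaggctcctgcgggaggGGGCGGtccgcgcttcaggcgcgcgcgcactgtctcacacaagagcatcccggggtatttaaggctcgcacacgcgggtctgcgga
Col1a1, chr11:94935974-94936223: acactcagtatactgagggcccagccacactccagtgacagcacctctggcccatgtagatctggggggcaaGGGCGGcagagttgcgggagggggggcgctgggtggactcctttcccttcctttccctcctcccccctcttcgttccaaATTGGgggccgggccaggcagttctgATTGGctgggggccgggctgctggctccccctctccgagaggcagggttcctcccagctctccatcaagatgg
Col3a1, chr1:45311288-45311537: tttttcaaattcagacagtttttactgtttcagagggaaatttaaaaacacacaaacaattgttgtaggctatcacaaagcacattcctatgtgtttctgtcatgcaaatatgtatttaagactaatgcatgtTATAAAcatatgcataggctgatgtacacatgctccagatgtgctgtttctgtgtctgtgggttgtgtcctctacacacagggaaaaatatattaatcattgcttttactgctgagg

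Over these 250 bases, Col5a1 had a GC content of 76.4% and 28 CG dinucleotides, Col27a1 61.6% and 15, and Col25a1 60.0% and 21. Col1a1 had 64.8% and 7, and Col3a1 35.2% and 0. The highest Col5a1 peak covered 206 of the bases in both replicates, that of Col25a1 220 in both, and that of Col27a1 180 in replicate 1 and 200 in replicate 2. GGGCGG stood in the open sequences of Col5a1, Col27a1 and Col25a1 and also in that of Col1a1, where no peak was listed. CCAAT stood before Col1a1 at 2 places and before Col25a1 at 1, the latter inside the Col25a1 peak of both replicates. The motif matches describe the letters and do not show that a factor bound.

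A smaller share of collagen genes than of protein-coding genes at large had a promoter peak. A peak within 500 bp of any annotated transcription start was listed for 19 of the 44 genes in replicate 1 (43.2%), against 63.4% over all protein-coding genes. The count in replicate 2 was 11 of 44 (25%), against 57.8%, and in both replicates it was 10 of 44 (22.7%), against 57.2%. With as many peaks in replicate 1 as in replicate 2, the highest being kept, replicate 1 had 10 such genes, so the larger share in replicate 1 did not hold at equal peak numbers. In bulk tissue, an open promoter in a small share of the cells and weak accessibility in all of them cannot be told apart.

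Much of the collagen signal lay away from the start that opens the coding transcript. Collagen genes are long, with a median of 114 kb against 17.4 kb for all genes, and have a median of 4 annotated starts against 3. Counting only starts of protein-coding transcripts, 13 genes in replicate 1 and 8 in replicate 2 had a peak, 7 of them in both, against 61.9%, 56.6% and 56% of all genes. At the 5'-most of those starts alone, 11 and 7 collagen genes had one, 6 of them in both, against 58.1%, 53% and 52.2%. Of the collagen genes with a promoter peak, 42.1% in replicate 1 and 36.4% in replicate 2 had it only at starts other than the 5'-most coding one, against 8.36% and 8.28% of all genes with a promoter peak.

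**Figure D1:**
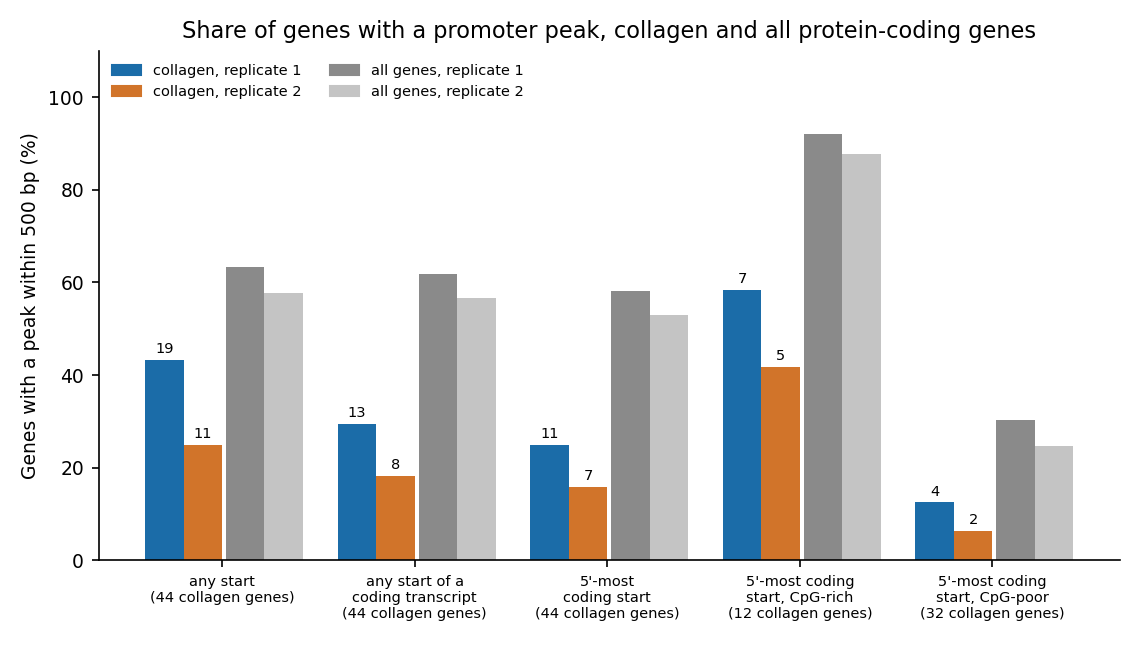
Bars give the percentage of genes with a peak within 500 bp of the starts named on the horizontal axis, for collagen genes (blue and orange, with the number of genes above) and for all protein-coding genes (grey), per replicate. In each of the 5 settings both collagen bars stand below both grey bars, from 43.2% and 25% against 63.4% and 57.8% at any start to 12.5% and 6.25% against 30.2% and 24.6% at CpG-poor starts.

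CpG content was compared because CpG-rich promoters tend to be open in most tissues. Around the 5'-most coding start, 12 collagen genes (27.3%) were CpG-rich, with a CpG observed over expected ratio of at least 0.6 and a GC content of at least 50% in the 500 bp on either side, against 45.1% of all genes. Among these 12, 7 in replicate 1 and 5 in replicate 2 had a peak at that start (58.3% and 41.7%), against 92% and 87.7% of all CpG-rich genes. Among the 32 CpG-poor collagen genes, 4 and 2 had one (12.5% and 6.25%), against 30.2% and 24.6%. The CpG-rich members with a peak there in both replicates were Col5a1, Col23a1, Col25a1 and Col27a1. Col2a1, the cartilage fibril chain, and Col8a2, a network-forming chain of the cornea, were CpG-rich and had no promoter peak in either library.

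Fibrillar collagens, the class that forms banded fibres, had 11 members, of which 5 had a promoter peak in replicate 1 and 3 in both replicates. The shares of all genes were 63.4% and 57.2%. Classes of 1 to 11 genes are too small to be ranked against each other. The 3 were Col1a1, Col5a1 and Col27a1. Col1a2 and Col11a2 had one in replicate 1 alone, and Col2a1, Col3a1, Col5a2, Col5a3, Col11a1 and Col24a1 in neither.

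Col1a1 (chr11:94936224-94953042), the gene of the alpha-1 chain of type 1 collagen, had the highest collagen promoter peak in replicate 1, and it was not at the start of the coding transcript. Its highest peak had a height of 3.12 in replicate 1 and 1.72 in replicate 2, or 4.99 and 2.08 times the library median (mean 3.53 ± 2.06, SD, n = 2). Both calls lay in an intron, centred 966 and 956 bp after the coding start, and were counted because a start of a shorter non-coding transcript lay 386 and 406 bp away. A further intronic peak, centred 3256 bp after the start in replicate 1 and 3276 bp in replicate 2, had heights of 1.40 and 0.597. Within 500 bp of the coding start neither library listed a peak.

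The intronic Col1a1 peak of replicate 1 held 6 footprints, short protected stretches that the authors called within accessible DNA at an FDR of 0.01, and that of replicate 2 held 5. Its sequence is shown because it is the most accessible place in the gene, 5' to 3' on the plus strand of mm10, with capitals for the same 7 motifs.
Col1a1 intron, chr11:94937081-94937300: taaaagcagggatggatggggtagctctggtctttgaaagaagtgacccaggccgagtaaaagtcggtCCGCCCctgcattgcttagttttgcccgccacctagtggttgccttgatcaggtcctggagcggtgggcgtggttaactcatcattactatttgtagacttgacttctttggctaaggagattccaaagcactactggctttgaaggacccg
The GC content was 50.9%, with 7 CG dinucleotides, and the 1 match was to GGGCGG, here on the minus strand. Of the 10448 replicate 1 peaks of the same width, 24.8% held that motif.

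The partner gene Col1a2 (chr6:4504814-4541544), for the alpha-2 chain, had 1 promoter peak, with a height of 0.156 in replicate 1, or 0.250 times the median, and none in replicate 2. It lay in an intron, centred 561 bp after the 5'-most coding start and 84 bp from an inner coding one. Col3a1 (chr1:45311538-45349706), whose product forms fibrils with type 1 collagen in vessels and skin, had none in either replicate. The 2 chains of type 1 collagen, which assemble into 1 molecule, thus differed in their listed peaks, and neither had one at its 5'-most coding start.

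Col5a1 (chr2:27886425-28039514), a chain that takes part in starting fibrils, was open over its coding start in both animals. The peak centred 165 bp before the start in replicate 1 and 155 bp in replicate 2 had heights of 1.63 and 1.66, or 2.60 and 2.01 times the median (mean 2.30 ± 0.421, SD, n = 2). Further peaks on either side brought its number to 3 in replicate 1 and 4 in replicate 2. A non-coding gene, 2810430I11Rik, starts near the peaks that lie after the Col5a1 start.

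Col27a1 (chr4:63214004-63334991), a fibrillar chain of cartilage, had the highest peak at a coding start within the family. Heights were 2.81 in replicate 1 and 2.17 in replicate 2, or 4.49 and 2.62 times the median (mean 3.56 ± 1.32, SD, n = 2), centred 105 and 115 bp before the start, with 6 footprints in each replicate. Over the promoter windows of the gene, 5 and 3 peaks were listed. Col11a2, a cartilage fibril chain, had a height of 0.822 in replicate 1, or 1.31 times the median, at a non-coding transcript start centred 8853 bp into the gene, and no peak in replicate 2.

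**Figure D2:**
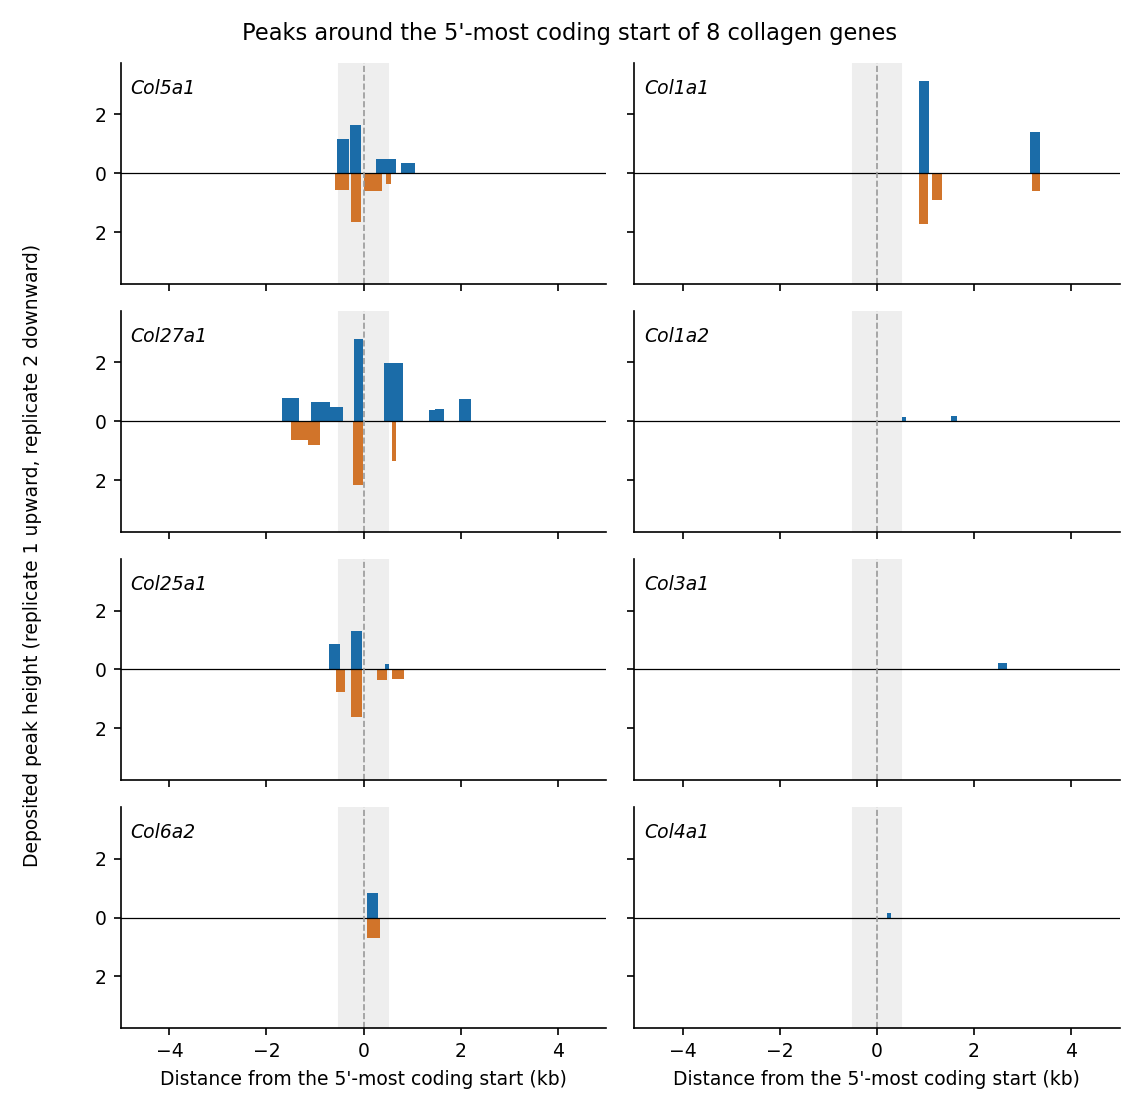
Each panel shows the peaks from 5 kb before to 5 kb after the 5'-most coding start (dashed line, 500 bp on either side shaded), with deposited height upward for replicate 1 and downward for replicate 2, and bar width equal to peak width. Col5a1, Col27a1, Col25a1 and Col6a2 have peaks of both replicates in the shaded window, while the Col1a1 peaks, with heights of 3.12 and 1.72, lie past it and Col3a1 has only a low replicate 1 peak, of height 0.203, outside it.

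The type 4 collagens, which form the network of basement membranes, had promoter peaks in replicate 1 alone, and low ones. Of the 6 type 4 genes, Col4a1, Col4a2 and Col4a5 had a promoter peak in replicate 1, none of the 6 had one in replicate 2, and Col4a3, Col4a4 and Col4a6 had none in either. The shares of all genes were 63.4% in replicate 1 and 57.8% in replicate 2. Col4a1 and Col4a2, the main chains of nearly all basement membranes, are transcribed away from each other and shared a single peak (chr8:11312541-11312620), with a height of 0.156, or 0.250 times the median. For Col4a1 its centre lay 246 bp after the 5'-most coding start, in a coding exon, and for Col4a2 225 bp before it. Col4a5, a chain of kidney and other basement membranes, had a height of 0.180, or 0.287 times the median, centred 225 bp before its start. Of all replicate 1 peaks, 4.77% were lower than the shared Col4a1 and Col4a2 peak and 6.90% lower than that of Col4a5. The same peak lay 945 bp from the nearest start of Col4a6, its divergent neighbour, and so was not counted there.

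Beaded filament collagens are the 6 type 6 genes. In replicate 1, 3 of them had a promoter peak, and 1 had one in both replicates, against 63.4% and 57.2% of all genes. Col6a2 (chr10:76595762-76623630), a chain of the type 6 microfibrils around cells, was that 1, with heights of 0.840 in replicate 1 and 0.689 in replicate 2, or 1.34 and 0.832 times the median (mean 1.09 ± 0.361, SD, n = 2). The peak lay in untranslated exon sequence, centred 180 and 200 bp after the start. Its neighbour Col6a1, for the alpha-1 chain of the same microfibrils, had none in either replicate. Col6a3, for the alpha-3 chain, had a replicate 1 height of 0.313 (0.500 times the median) at an inner non-coding start 71.2 kb into the gene. Col6a4, which encodes a further type 6 chain, had one of 0.203 (0.324 times the median), also at an inner start. Neither had a replicate 2 peak, and Col6a5 and Col6a6 had none in either.

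The fibril-associated collagens with interrupted triple helices are known as FACITs. Among these 9 genes, Col14a1 (chr15:55307750-55520803) alone had a promoter peak in both replicates, against 57.2% of all genes. Its heights were 0.243 in replicate 1 and 0.353 in replicate 2, or 0.389 and 0.427 times the median (mean 0.408 ± 0.0266, SD, n = 2), at the start of the gene. Col12a1, which like Col14a1 binds the surface of type 1 fibrils, had 2 peaks in replicate 2 alone, the higher at 0.301 (0.364 times the median). In replicate 1 a Col12a1 peak of height 0.168 lay 790 bp from a start and was not counted. Col16a1 had an inner peak of height 0.330 in replicate 1 alone. Upstream of Col16a1, a peak 1860 bp from its start in replicate 1 and 1900 bp in replicate 2 was too far to count. Its heights were 2.66 and 2.84. The cartilage genes Col9a1, Col9a2 and Col9a3, and also Col19a1, Col20a1 and Col22a1, had none.

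Transmembrane collagens, 4 genes for chains anchored in the cell membrane, had 3 members with a promoter peak in both replicates. This was 75%, against 57.2% of all genes. Col25a1 (chr3:130131501-130599877) had heights of 1.30 in replicate 1 and 1.60 in replicate 2, or 2.08 and 1.94 times the median (mean 2.01 ± 0.103, SD, n = 2), centred 151 bp before its coding start in both, within an intron of a longer non-coding transcript. Col23a1 (chr11:51289920-51583918) had 1.15 and 0.371, or 1.83 and 0.448 times the median (mean 1.14 ± 0.980, SD, n = 2), so that the SD was close to the mean. Col13a1 (chr10:61838236-61979108), a collagen of the neuromuscular junction, had 1.51 and 0.747, or 2.42 and 0.902 times the median (mean 1.66 ± 1.07, SD, n = 2), in an intron 101 kb into the gene. Within 500 bp of the 5'-most coding start it had only a replicate 1 peak of height 0.295, 484 bp away. A higher peak lay 1433 bp upstream of that start in both replicates, outside the window. Its heights were 4.10 and 1.84, or 6.56 and 2.22 times the median. Col17a1, a chain of the hemidesmosome that holds epithelia to their basement membrane, had none.

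Multiplexins, the basement membrane collagens with many interruptions in the helix, are Col15a1 and Col18a1. Col15a1 (chr4:47208161-47313167) had heights of 2.28 in replicate 1 and 1.80 in replicate 2, or 3.65 and 2.17 times the median (mean 2.91 ± 1.05, SD, n = 2), at an inner coding start 80.3 kb into the gene. Its 5'-most start, CpG-rich, had no peak. Col18a1, whose product releases endostatin, had a height of 0.208 (0.333 times the median) at its 5'-most start in replicate 1 alone.

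Of the remaining genes, Col26a1 (chr5:136741759-136883209) had heights of 1.55 in replicate 1 and 0.574 in replicate 2, or 2.47 and 0.692 times the median (mean 1.58 ± 1.26, SD, n = 2), at an inner non-coding start 127 kb into the gene. Col28a1 had none within 500 bp, with a replicate 1 peak of height 0.266 at 854 bp. Col7a1, for the anchoring fibrils of skin, and the short-chain genes Col8a1, Col8a2 and Col10a1, the last a marker of hypertrophic cartilage, had none.

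**Figure D3:**
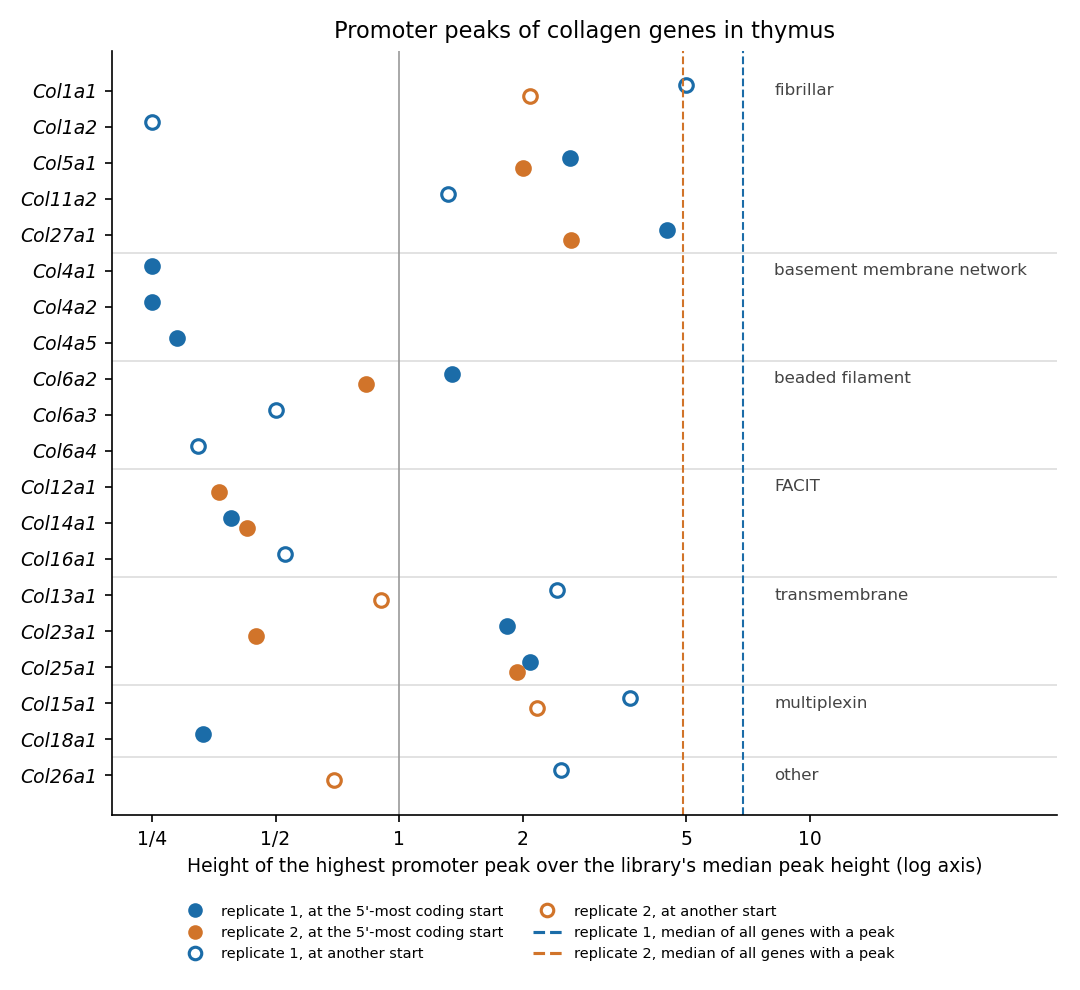
Points give the height of the highest peak within 500 bp of any start over the library's median peak height (log axis) for the 20 collagen genes with a promoter peak, grouped by class. Filled points lie at the 5'-most coding start and open points at another start. The Col1a1 points, at 4.99 and 2.08, are open and no point passes the dashed median of all genes of its own replicate, at 6.88 in replicate 1 and 4.92 in replicate 2.

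Where collagen promoters carried peaks, these were low. The median over collagen genes was 1.31 times the library median in replicate 1 (19 genes, 0.250 to 4.99) and 0.902 in replicate 2 (11 genes, 0.364 to 2.62). Over all genes with a promoter peak it was 6.88 and 4.92. A height of at least the library median was reached by 10 of 19 collagen genes in replicate 1 (52.6%) and 5 of 11 in replicate 2 (45.5%), against 87.2% and 87.4% of all genes with a peak. At the 5'-most coding start alone the collagen medians were 0.472 and 0.832 (11 and 7 genes), against 6.92 and 4.95.

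**Figure D4:**
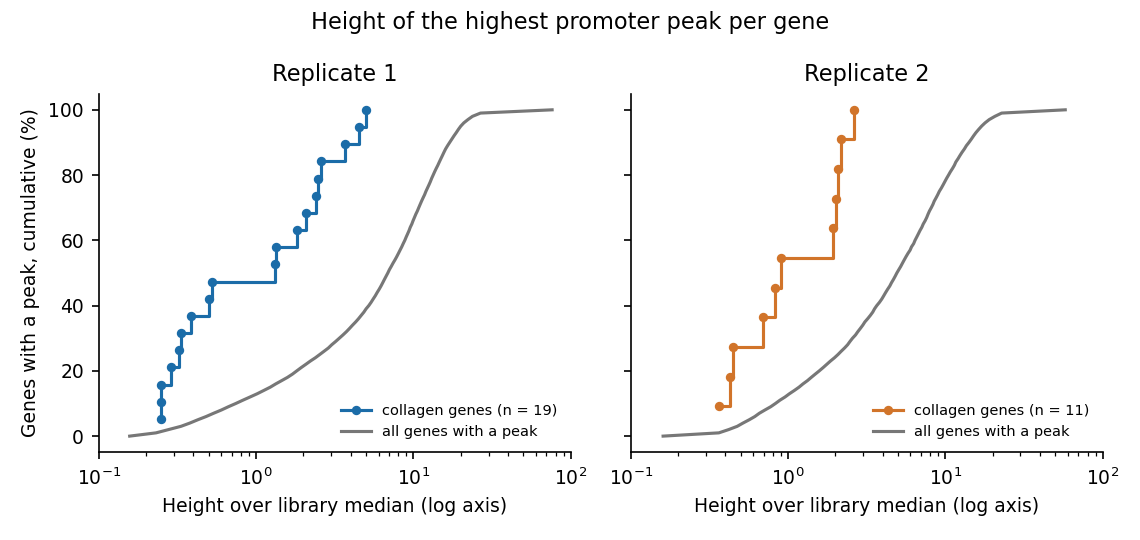
Curves give the cumulative percentage of genes with a promoter peak (vertical axis) whose highest peak is at or below the height on the log horizontal axis, for collagen genes (points) and for all protein-coding genes (grey line), per replicate. The collagen curves end at 4.99 and 2.62 times the library median, below the medians of all genes at 6.88 and 4.92.

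The replicates differed in which collagen promoters were listed. In replicate 1 alone 9 collagen genes had a promoter peak, Col1a2, Col4a1, Col4a2, Col4a5, Col6a3, Col6a4, Col11a2, Col16a1 and Col18a1 (9 of 44, against 6.19% of all genes). In replicate 2 alone it was Col12a1, 1 of 44, against 0.602%. The 9 had a median height of 0.324 times the replicate 1 median (0.250 to 1.31), while the 10 genes with a peak in both replicates had 2.44 in replicate 1 and 1.42 in replicate 2. With the 69798 highest peaks of replicate 1, as many as replicate 2 has, only 1 collagen gene had a promoter peak in replicate 1 alone and 2 in replicate 2 alone. Replicate 1 listed more peaks and more of the mesenchymal markers, 8 of 15 against 3 of 15. Those mesenchymal markers listed in replicate 1 alone stood at 0.213 to 0.481 times the median. Smooth muscle markers (2 against 1) and endothelial ones (5 against 4) were also more in replicate 1. Thymic epithelial markers were equal (3 and 3) and cartilage markers fewer (3 against 5). The part of these differences in the collagen counts was not tested. Of the 10 genes with a peak in both, 9 were higher in replicate 1 over the library median, and 7 as deposited. Heights over the library median were also higher in replicate 1 over all genes with a promoter peak, with medians of 6.88 against 4.92. The library median that divides them was lower in replicate 1, at 0.625 against 0.828. The share of all genes higher in replicate 1 was not counted. Whether the 9 of 10 is particular to collagen genes was therefore not tested.

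The deposited FDR of the cut rate, listed only where it was under 0.05, was listed at every 5'-most coding start that had a peak. This held over all genes as over collagen genes, so the listing follows from the peak calls and adds no support for them. An interval was listed within 500 bp for 11 collagen genes in replicate 1 and 7 in replicate 2, against 59.8% and 54.2% of all genes. None of the 33 collagen genes in replicate 1 and 37 in replicate 2 without a peak there had one. The shares of all genes without a peak there were 4.13% and 2.44%, at which few would be seen among so few genes. The lowest FDR in the window was 3.0e-46 and 1.1e-19 at Col5a1, 2.4e-28 and 4.5e-15 at Col27a1 and 1.2e-27 and 3.2e-21 at Col25a1, in replicates 1 and 2. At Col14a1 it was 0.000398 and 0.0139. Of the 32 separate collagen promoter peaks of replicate 1, 68.8% held a footprint, against 80.1% of the promoter peaks of all genes, and of the 22 of replicate 2, 72.7% against 84.3%.

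Motifs were counted from 250 bases before to 50 after the 5'-most coding start. TATAAA stood in 6 of 44 collagen genes (13.6%), against 12.6% of all genes. These were Col1a1, Col3a1, Col10a1, Col13a1, Col14a1 and Col17a1, and for Col1a1 the match fell in the 50 bases after the annotated start, which are not shown. CCAAT stood in 40.9% against 39% and GGGCGG in 56.8% against 43.8%. CCGGAAG stood in 0 of 44 against 11%, and TGTGGT in 6.82% against 15.1%. TGANTCA and CACGTG each stood in 1 gene (2.27%), Col6a1 and Col17a1, against 6.75% and 7.72%.

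Outside promoters, the number of peaks around collagen genes depended on how they were assigned. Distal peaks are those over 1000 bp from every protein-coding start, counted within 50 kb of any start of the gene. A gene with more starts, or starts spread more widely, is thus searched over more sequence. Collagen genes have a median of 4 starts against 3, and the counts were not scaled for this. Collagen genes had a mean of 7.52 in replicate 1 and 3.18 in replicate 2 (5.35 as the mean of the replicates), against 7.11 and 3.45 for all genes, with medians of 5.5 and 2 against 5 and 2. Counting only peaks with no nearer protein-coding gene start, the means were 5.07 and 2.09, against 3.31 and 1.501, and the medians 3 and 1, against 1 and 0. At least 1 distal peak was listed for 43 of 44 collagen genes in replicate 1 and 30 of 44 in replicate 2, against 88.1% and 74.6% of all genes. Col8a1, for a short-chain collagen of vessels and the eye, had none in either. The heights had medians of 0.898 and 0.930 times the library median over 322 and 139 separate collagen distal peaks, against 0.963 and 0.881 over all genes. Of these, 38.8% of replicate 1 peaks were overlapped in replicate 2, against 37.9% for all genes, and 89.9% of replicate 2 peaks in replicate 1, against 85.1%. Peaks within gene bodies were also counted, here with promoter peaks included. Per 100 kb, collagen genes held a median of 3.32 and 0.753 such peaks, against 7.87 and 3.94 for all genes. The median length was 114 kb for collagen genes and 17.4 kb for all genes, and a start peak weighs more in a short gene. This rate therefore does not give the density of peaks outside promoters.

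Distal peaks were unevenly spread over the family, in counts not scaled to the number or spread of a gene's starts. Col15a1 had 39 in replicate 1 and 13 in replicate 2, of which 37 and 11 had no nearer protein-coding gene start than its own. An intronic peak 43.0 kb after its start (chr4:47251061-47251240) had heights of 6.87 and 3.97. The other multiplexin gene, Col18a1, had 13 and 6.

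Col26a1 had 25 and 19 distal peaks, the highest in an intron centred 19044 and 19034 bp after its start, with heights of 6.05 and 4.49, or 9.68 and 5.42 times the median. Col27a1 had 18 and 12, the highest again in an intron, with heights of 4.37 and 3.19. Col4a2 had 18 and 5, although its promoter had only the low peak shared with Col4a1. Col6a3 had 15 and 8, all nearest to itself, the highest downstream of the gene with heights of 3.56 and 1.59. Col11a2 had 13 and 10, of which only 1 in each replicate was nearest to it. The highest, with heights of 10.2 and 7.85, lay nearest to H2-Oa, a gene of antigen presentation by class 2 molecules.

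Of the type 1 and type 3 genes, Col1a2 and Col3a1 were under the mean of all genes in both replicates, and Col1a1 was above it in replicate 2 alone. Col1a1 had 7 and 4 distal peaks, 2 of them in each replicate nearest to it, and the highest, at 8.47 and 5.09, was nearest to Sgca, which encodes a sarcoglycan of muscle. Col1a2 had 5 and 3, all nearest to it, the highest at 0.973 in replicate 1 and 0.446 in replicate 2, both downstream of the gene. Col3a1 had 2 and 0, with heights of 0.203 and 0.127 in replicate 1.

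**Figure D5:**
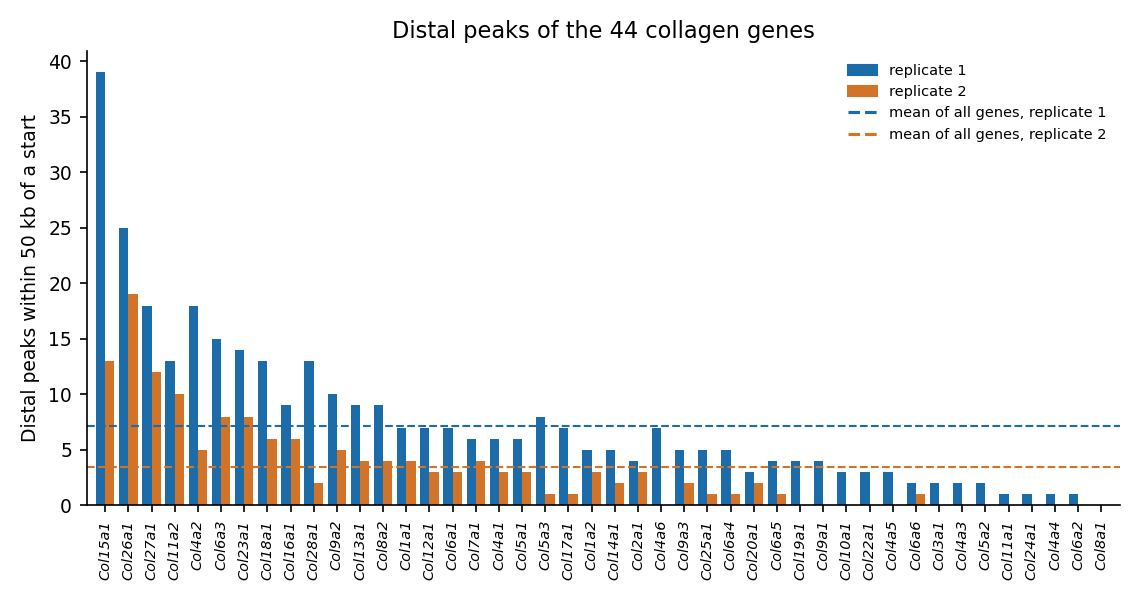
Bars give the number of distal peaks within 50 kb of a start for each of the 44 collagen genes, ordered by the sum over both replicates, and dashed lines give the means over all genes, at 7.11 for replicate 1 and 3.45 for replicate 2. Col15a1 stands highest, with 39 and 13, and Col8a1 has none.

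Promoter peaks were also counted at genes whose products make, fold and process collagen. Of 37 synthesis genes, 29 had a promoter peak in replicate 1, 26 in replicate 2 and 25 in both, beside the 63.4%, 57.8% and 57.2% of all genes. P3h1, a prolyl 3-hydroxylase, stood at 22.6 ± 5.16 times the library median (SD, n = 2). P4hb, the protein disulfide isomerase that is the beta subunit of prolyl 4-hydroxylase, stood at 18.6 ± 0.146, and P4ha1, its catalytic subunit, at 16.4 ± 0.231. Colgalt1, which adds galactose to hydroxylysine, stood at 14.01 ± 4.07. Sparc, for a collagen-binding glycoprotein, and Pcolce and Pcolce2, for enhancers of procollagen cleavage, had none. Lox, Loxl1, Loxl2 and Loxl4 had none either. Serpinh1, at 0.333 times the median, and P4ha3, Fkbp10 and Tll1 had one in replicate 1 alone, and P3h2 in replicate 2 alone.

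Of 12 collagen receptor genes, 7 had a promoter peak in replicate 1 and 5 in both replicates, beside the 63.4% and 57.2% of all genes. Adgrg1, an adhesion receptor, stood at 8.25 ± 1.45, Itgb1, the shared beta chain of the collagen-binding integrins, at 4.89 ± 0.925, Ddr1, a receptor tyrosine kinase for collagen, at 2.72 ± 0.328 and Itga2 at 1.23 ± 0.638 times the median (SD, n = 2 each). Itga1, Itga11 and Ddr2 had none. Of 10 annotated genes of collagen breakdown and its inhibitors, 5 had one in replicate 1 and 2 in both, beside the 63.4% and 57.2% of all genes. The 2 were the inhibitor genes Timp2 at 4.72 ± 1.93 and Timp3 at 0.616 ± 0.347 (SD, n = 2 each), and in the stricter peak file the count fell to 1. The Timp3 peak lay at a start other than the 5'-most coding one. In replicate 1 alone the protease genes Mmp14 and Mmp9 stood at 1.81 and 0.843 times the median and the inhibitor gene Timp4 at 0.472. The proteases Mmp2, Mmp8, Mmp13 and Ctsk and the inhibitor Timp1 had none.

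Partners of type 4 collagen in the basement membrane had promoter peaks in 12 of 17 genes in each replicate and in 11 in both, beside the 63.4%, 57.8% and 57.2% of all genes. In the stricter peak file 7 had one in both. Hspg2, for perlecan, stood at 7.50 ± 3.05, Lamc1, for the laminin gamma-1 chain, at 2.78 ± 0.402, Agrn, for agrin, at 2.06 ± 0.237 and Fn1, for fibronectin, at 2.00 ± 0.164 (SD, n = 2 each). Lama3, Lamb1 and Nid1 had none. Of 11 genes whose products bind fibrils, 2 had a peak in replicate 1 and only Comp in both, at 0.799 ± 0.180 (SD, n = 2), beside the same shares of all genes, and in the stricter peak file none had one in both. None of the 11 had a peak at its 5'-most coding start in either replicate. There was none at Dcn, Bgn or Fmod. Where neighbouring genes start close together, a single peak could count for several of them.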

How the data were processed

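DNase-seq of thymus from 2 female mice was analysed from the deposited files, which are on mm10 (GRCm38), per the README of either sample. The authors' peak files give a signal per peak, read here as its height, and were made per library. The larger of each library's 2 peak files was used (132737 and 69798 peaks, the others holding 93790 and 46467). Heights were whole multiples of a step of their own library (0.00579 in both when rounded), to within 0.00993 of a step. The authors' footprints carry a constant FDR of 0.01, and the deposited FDR of the cut rate, a q-value, was listed only under 0.05. For the aligner, the callers and the depth in reads, nothing is given in the sources used here. Reads from the CAST/EiJ chromosomes may map less often, which was not measured.

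Starts came from GENCODE M21 and sequence from GRCm38.p6. Promoter peaks overlapped 500 bp on either side of any transcript start. Distal peaks lay over 1000 bp from every protein-coding start and within 50 kb of any start of the gene. The 5'-most coding start is that of transcripts annotated as protein-coding. Coordinates are 1-based. Python 3.11.15, numpy 2.4.6, pandas 2.3.3 and matplotlib 3.10.9 were used, and peak scoring was tested on simulated peaks.

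The collagen family and the lists were chosen with earlier results of these data known, while the genes in the family follow from their names. Every collagen gene is named, values are given for those with a promoter peak in both replicates and for types 1, 3, 4 and 6, and of each other list up to 4 members with the highest heights and up to 3 without a peak are named. Genes singled out beyond that rule were chosen after their values were seen. Of 88 listed pathway genes, Mmp1a was not annotated. Both animals belong to 1 group, so no test was made and the SDs show the spread between 2 samples. Windows, peak files, peak numbers, start sets and distances were varied, and each replicate was left out.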

Additional observations from a re-analysis of the deposited data

How the results depend on the processing

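Of 101 recomputed values, 77 stayed within 1.5 times the reported count or within the replicate spread. Equal peak numbers gave 10 collagen genes with a promoter peak in replicate 1 (19 reported), 1 gene in replicate 1 alone (9 reported), 2 in replicate 2 alone (1 reported) and 3.61 distal peaks per gene in replicate 1 (7.52 reported). The 5'-most annotated start alone gave 10 genes in replicate 1, 6 in replicate 2 and 5 in both (19, 11 and 10 reported). The 5'-most coding start, added after the data were seen, gave 11, 7 and 6, with 5 in replicate 1 alone and a median height of 0.652 (1.11 reported as the mean of the replicates). That height was 0.785 as deposited and 0.485 over the median of all promoter peaks. In replicate 2 alone, a 250 bp window gave 2 genes, and a 1000 bp window and the stricter file gave 0. Within 100 kb, replicate 1 had 13.3 distal peaks per gene. Leaving out a replicate gave 11 to 19 genes, median heights of 0.902 to 1.31 and 3.18 to 7.52 distal peaks per gene. With 2 replicates these are the values of the other replicate, so they lie within the replicate spread by construction. They are among the 77 and do not show stability. Of 42 class and list counts, 36 stayed within 1.5 times. Of the 6 that did not, 4 came from the stricter file, which in both replicates gave 0 FACIT genes (1 reported), 7 basement membrane partners (11 reported), 0 fibril-binding genes (1 reported) and 1 gene of collagen breakdown and its inhibitors (2 reported). A 1000 bp window gave 2 FACIT genes, and a 250 bp window gave 0 genes of the class that holds Col26a1 (1 reported). The type 4, anchoring fibril and short-chain classes had 0 genes in both replicates in every setting and are among the 36. The 36 therefore do not show stability. The cause of each shift was not tested. How read depth limits the listing of low peaks, such as those of type 4 genes, was not measured. No paired analysis was possible because there is 1 group.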
